A study of Rattus norvegicus with 15 samples.

Results

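The splicing kinases described here are the 4 Cdc2-like kinases Clk1, Clk2, Clk3 and Clk4, the SR protein kinases Srpk1 and Srpk2, and the related kinase Dyrk1a. They were picked by name, and the set was built around Clk4, whose level was known to be higher in tumours of both altered zinc diets than in controls. The values that chose the set are therefore the 2 comparisons of Clk4 with control. Of the 7 genes, 6 had a probe that could be named through its transcript accession, and Srpk1 had none. Clk1 had 2 probes, which gave 7 probes. Tests ran over 21010 of the 41012 probes on the array, which cover 8377 named genes. Of these 7 probes, 6 stood well above background on all 15 arrays.

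SR proteins are splicing factors with a tail of serine and arginine repeats, and the phosphates on that tail set where they sit in the cell and which exons they help to define. SR protein kinases act mainly in the cytoplasm and prepare SR proteins for import into the nucleus, where Clk kinases add further phosphates and release them from nuclear speckles to sites of transcription. Clk1 and Clk4 are close paralogs, Clk2 and Clk3 stand further apart, and Dyrk1a phosphorylates splicing factors as well as the transcription factors and cell cycle proteins it is better known for. In mammary tumours, shifts in SR protein activity are known to change the isoforms of many genes.

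The tissue was mammary tumour from female Sprague-Dawley rats, 5 tumours per early-life diet, each on 1 single-colour array. The zinc-deficient group came from chow with 3 mg/kg zinc, the supplemented group from chow with 180 mg/kg, and the control group from adequate chow with 35 mg/kg. Dams (16 per group) ate the chow from gestation day 10 to weaning on day 21, and their daughters ate it until day 51. All animals of all groups then received 1 dose of 50 mg/kg DMBA, a polycyclic hydrocarbon used to induce rat mammary tumours, ate adequate chow, and were killed at 180 days. The labels call the third group a negative control, which was read as the adequate diet. One free-text field names mammary gland at day 21, and it was set aside in favour of the tissue and age fields, which name tumour and 180 days. Nothing in the labels ties each tumour to its own animal or litter, and p-values then reflect only how these tumours spread, which may be technical in part.

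A level below is a log2 signal relative to the 75th percentile of its own array, so that 0 is the signal at that percentile. Levels of different probes are not on 1 scale and were not ranked against each other. The arrays lay on 4 slides, each holding all 3 diets, and differed in brightness, with 13854 to 24009 of 43379 spots well above background and 0 saturated. Precision is limited by the number of arrays, and the half-width of the 95% interval of a difference between diets was 0.51 for the median probe. Of the luminal epithelial markers on the array, 7 of 8 were well above background on every array, and none of the 4 B cell markers was on any. In bulk tissue, fewer cells of a type and less RNA per cell cannot be told apart.

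The promoters of Clk1 and Clk4 are shown because these genes varied together across the tumours, as described further down. Both are from RefSeq, build GRCr8, from 250 bases before to 50 bases after the annotated start, 5′ to 3′ on the gene's strand. Promoter windows were found for 6 of the 7 genes, Dyrk1a being the one without. Capitals mark matches to a metal response element, the letters that the zinc-sensing factor MTF-1 binds (searched as TGCACNC or TGCGCNC), a cAMP response element (TGACGTCA) or a heat shock element (GAANNTTC), each on both strands.
Clk1, chr9:67453131-67453430, minus strand: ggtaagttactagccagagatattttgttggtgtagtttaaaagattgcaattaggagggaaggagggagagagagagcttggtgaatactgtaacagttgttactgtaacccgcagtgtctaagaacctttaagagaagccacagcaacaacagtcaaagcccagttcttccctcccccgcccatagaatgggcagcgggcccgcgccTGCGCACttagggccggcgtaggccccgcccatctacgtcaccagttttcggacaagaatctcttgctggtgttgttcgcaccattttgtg
Clk4, second annotated start site, chr10:36025490-36025789, plus strand: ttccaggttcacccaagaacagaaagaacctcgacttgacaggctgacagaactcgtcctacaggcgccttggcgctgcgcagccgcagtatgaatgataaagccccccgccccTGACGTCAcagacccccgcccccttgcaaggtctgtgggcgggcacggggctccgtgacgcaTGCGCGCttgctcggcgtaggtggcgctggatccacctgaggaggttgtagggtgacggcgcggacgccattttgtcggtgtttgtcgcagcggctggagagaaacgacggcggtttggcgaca
The Clk1 window (51.0% G and C) held 1 match, TGCGCAC, 41 bases before the start. The Clk4 window (63.0% G and C) held TGACGTCA 136 bases before the start and TGCGCGC 74 bases before it. These matches do not overlap. Clk4 has 2 annotated start sites, and only the window of the second, which held matches, is printed. The window of the first annotated Clk4 start site, 40.3% G and C, held none of the 3 motifs. Which site these tumours use was not tested. Srpk1 held TGCGCTC 127 bases before its start, and the windows of Clk2, Clk3 and Srpk2 held none. Among 33469 rat promoter windows of the same length, 24.2% held the metal response letters, 1.83% the cAMP response letters and 8.59% the heat shock letters, so the metal response match in particular is common. A match is a run of letters and not a shown binding site.

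Clk4, a nuclear kinase of SR proteins, was the member with the widest range over the 15 tumours, 1.43 log2 units. Its level was 2.27, 2.81, 2.88, 2.74 and 2.36 in the 5 deficient tumours, 2.74, 2.88, 2.60, 2.61 and 2.62 in the 5 supplemented tumours, and 2.75, 1.70, 1.45, 1.92 and 1.90 in the 5 controls. Thus 4 of the 5 controls, at 1.92 or less, lay below all 10 tumours of the altered diets, while control 1 lay among them and was exceeded by 3 of the 10. Each altered diet therefore overlapped the controls through that 1 tumour.

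The Clk4 means were 2.61 ± 0.28 in deficient, 2.69 ± 0.12 in supplemented and 1.94 ± 0.49 in control tumours (SD, n = 5 each). Deficient minus control was 0.67 (95% interval 0.21 to 1.12), a 1.59-fold difference, and supplemented minus control was 0.75 (0.29 to 1.20), a 1.68-fold difference. These are descriptions of the values by which the set was chosen, and both share the same 5 controls. Limma called 0 of the 21010 probes in either comparison at an adjusted p of 0.05 (0%), with 821 (3.91%) at an unadjusted p under 0.05 for deficient against control and 415 (1.98%) for supplemented against control. Differences at least as large as those of Clk4 in both comparisons were found in 40 probes (0.19%), and 18 probes (0.0857%) were higher in both with an unadjusted p under 0.05 in each. Clk4 was chosen for being higher in both, so its place among all probes follows from the choice and carries no test. Without control 1 the differences were 0.87 for deficient and 0.95 for supplemented tumours, and without control 3 they were 0.55 and 0.62.

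Every slide held all 3 diets, with 1 or 2 arrays of each, so the Clk4 differences can also be laid out by slide. They are the same values that chose the set and are given as a description. Deficient minus control was -0.47, 1.11, 1.36 and 0.45 on slides 1 to 4. Supplemented minus control was -0.01, 1.04, 1.15 and 0.71. Slide 1, which carries control 1 and only 1 array of each diet, was thus the exception in both comparisons. The control 1 array was not among the 3 dimmest, but the array of deficient tumour 1 on the same slide was. Over the 15 tumours Clk4 had an r of -0.007 (rho = 0.188, permutation p = 0.979) with the number of spots well above background, a measure of array brightness.

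The comparison of supplemented with deficient tumours was not among the 2 that chose the set. For Clk4 it uses the same altered-diet tumours that entered both, so its p-values are no independent test of Clk4. Clk4 averaged 2.69 in supplemented and 2.61 in deficient tumours, a difference of 0.08 (95% interval -0.38 to 0.53, limma adjusted p = 0.947; exact permutation p = 0.548, two-sided). The groups overlapped fully, since the supplemented tumours lay between 2.60 and 2.88 and the deficient tumours between 2.27 and 2.88. The interval leaves room for a difference of either sign, so equal levels were not shown. Within slides the difference ran from -0.20 to 0.47 and was positive on 2 of 4.

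**Figure D1:**
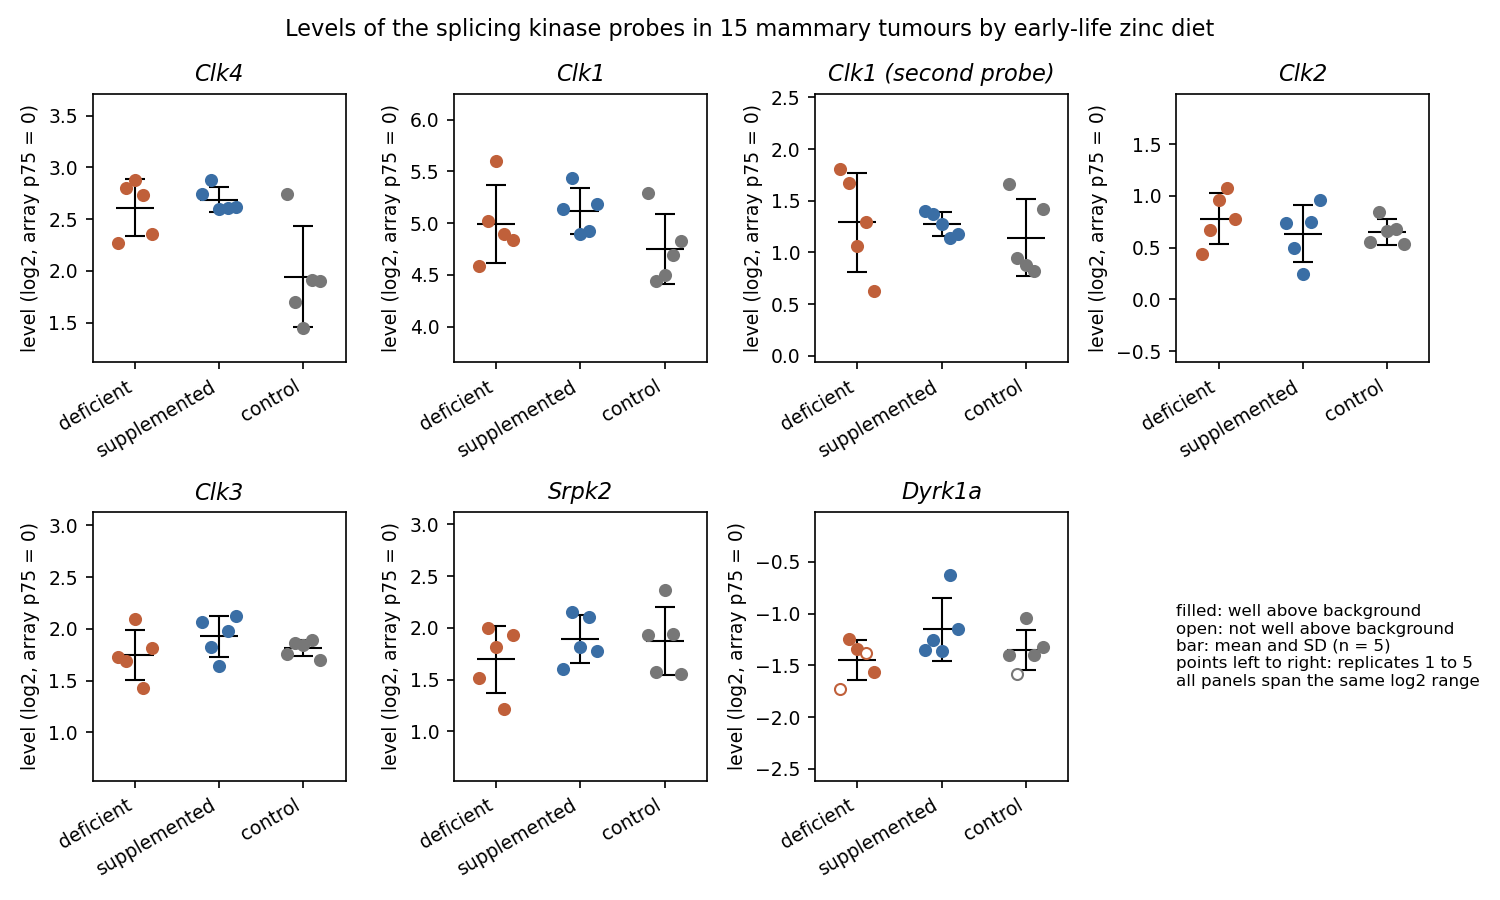
Levels of the 7 member probes (log2 signal relative to the array's 75th percentile) in deficient, supplemented and control tumours, with 1 point per tumour and bars for the mean and SD (n = 5 per diet). For Clk4, 4 of 5 controls sit at 1.92 or below and all 10 tumours of the altered diets at 2.27 or above, with control 1 among the latter. The groups of all 7 probes overlap. Open points in the Dyrk1a panel were not well above background.

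Clk1, the paralog of Clk4 and the best studied kinase of the family, was measured by 2 probes. On the brighter one its level was 4.59, 5.02, 5.60, 4.89 and 4.84 in deficient tumours, 5.14, 5.44, 4.90, 4.93 and 5.19 in supplemented tumours, and 5.30, 4.45, 4.50, 4.69 and 4.83 in controls. As with Clk4, control 1 was the highest control, and here 1 deficient and 1 supplemented tumour exceeded it. The means were 4.99 ± 0.38 in deficient, 5.12 ± 0.22 in supplemented and 4.75 ± 0.34 in control tumours (SD, n = 5 each). Deficient minus control was 0.24 (95% interval -0.21 to 0.68) and supplemented minus control 0.37 (-0.08 to 0.81), given as descriptions. Supplemented minus deficient was 0.13 (-0.32 to 0.57, limma adjusted p = 0.902).

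The second Clk1 probe ranged from 0.62 to 1.80 in deficient, from 1.14 to 1.40 in supplemented and from 0.82 to 1.66 in control tumours. Its means were 1.29 ± 0.48 in deficient, 1.28 ± 0.12 in supplemented and 1.14 ± 0.38 in control tumours (SD, n = 5 each), and supplemented minus deficient was -0.02 (limma adjusted p = 0.991). The 2 Clk1 probes followed each other weakly over the 15 tumours (r = 0.256, rho = 0.28, with r = 0.643 under the planned normexp background correction), so what is said of Clk1 below holds for the brighter probe. The probe sequences were not used here, so which Clk1 transcripts each probe reads, and whether a probe also binds transcripts of the paralog, was not tested.

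Clk2 and Clk3, the other nuclear kinases of the family, had overlapping levels in the 3 diets. Clk2 had a mean of 0.78 ± 0.25 in deficient, 0.64 ± 0.27 in supplemented and 0.65 ± 0.13 in control tumours (SD, n = 5 each). Supplemented minus deficient was -0.15 (95% interval -0.50 to 0.21, limma adjusted p = 0.857). Clk3 was 1.73, 1.69, 2.09, 1.43 and 1.81 in deficient tumours, 2.07, 1.82, 1.64, 1.98 and 2.12 in supplemented tumours, and between 1.70 and 1.89 in controls. The control tumours were the tightest of the 3 groups and fell inside the spread of both altered diets. Supplemented minus deficient for Clk3 was 0.18 (-0.15 to 0.50, limma adjusted p = 0.805), positive within each of the 4 slides at 0.05 to 0.34.

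Srpk2, the cytoplasmic kinase of SR proteins, ranged from 1.22 to 2.00 in deficient, from 1.61 to 2.15 in supplemented and from 1.56 to 2.36 in control tumours. Its mean was 1.70 ± 0.33 in deficient, 1.89 ± 0.23 in supplemented and 1.87 ± 0.33 in control tumours (SD, n = 5 each). Supplemented minus deficient was 0.19 (95% interval -0.23 to 0.62, limma adjusted p = 0.840). The groups overlapped in all 3 pairings.

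Dyrk1a, the kinase with targets beyond splicing, had the only member probe that was near background on some arrays. It stood well above background in 3 of 5 deficient, 5 of 5 supplemented and 4 of 5 control tumours. Its level was -1.73, -1.25, -1.34, -1.38 and -1.56 in deficient tumours, -1.36, -1.25, -1.37, -0.63 and -1.15 in supplemented tumours, and -1.40, -1.59, -1.05, -1.40 and -1.32 in controls. The values of deficient tumours 1 and 4 and control 2 come from spots not well above background. Supplemented minus deficient was 0.30 (95% interval -0.06 to 0.67, limma adjusted p = 0.738; exact permutation p = 0.0952, where 0.00794 is the smallest possible). The highest supplemented tumour lay at -0.63 and the next at -1.15, and without the highest the difference was 0.17.

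Between supplemented and deficient tumours limma called 0 of the 7 member probes, as it called 0 of all 21010 (0%). At an unadjusted p under 0.05 there were 0 member probes and 1482 of all probes (7.05%). The groups overlapped for all 7 probes. Of all probes, 180 (0.857%) had supplemented tumours all above and 135 (0.643%) all below the deficient ones. Against control the groups also overlapped for all 7 probes, where 36 probes (0.171%) were wholly higher and 46 (0.219%) wholly lower in deficient tumours, and 44 (0.209%) wholly higher and 30 (0.143%) wholly lower in supplemented tumours. For the members, the comparisons with control are given as descriptions and carry no test.

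**Figure D2:**
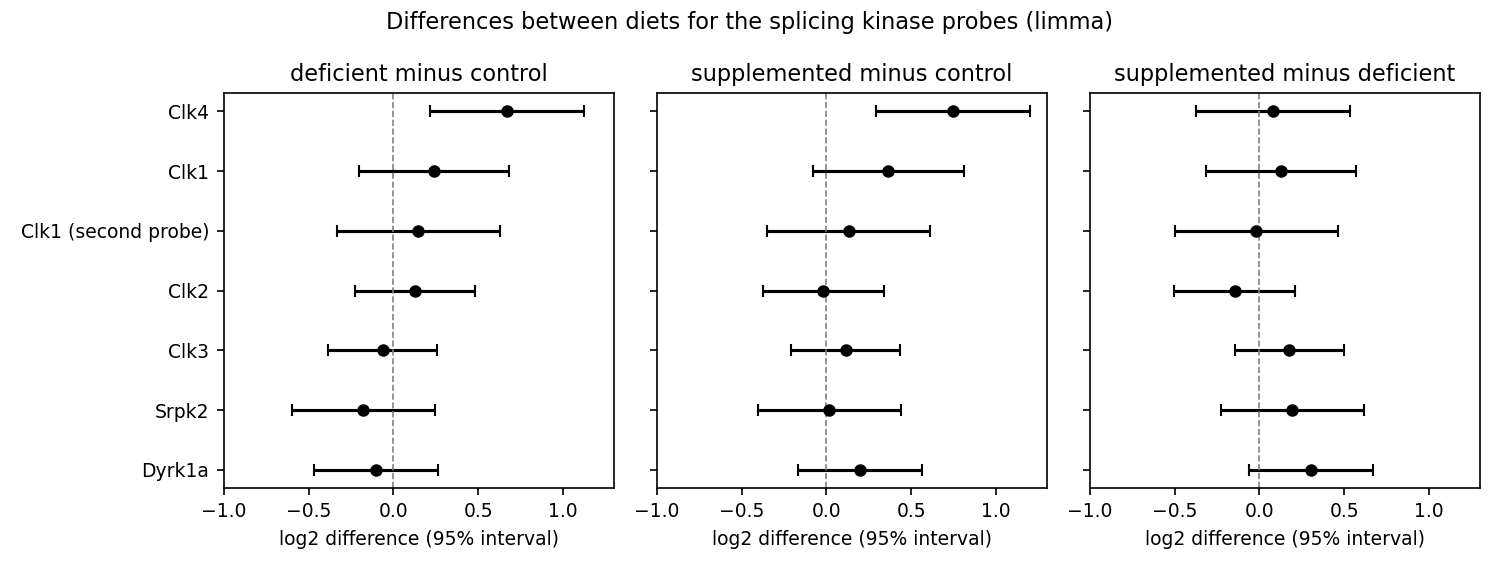
Log2 differences between diets for each member probe, with 95% intervals from the limma fit to all 15 arrays. The Clk4 intervals lie above 0 in both comparisons with control, which are the values that chose the set, and the intervals of all 7 probes cross 0 for supplemented minus deficient.

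The members varied to different extents within a diet. The SD within diets was 0.185 for Clk3, smaller than that of all but 3.65% of tested probes, and 0.225 for Clk2, with 10.2% of probes below it. It was 0.237 for Dyrk1a, 0.299 for Srpk2, 0.320 and 0.356 for the 2 Clk1 probes and 0.330 for Clk4, against a median of 0.387 over all tested probes. All 7 member probes thus varied less within a diet than the median probe. Of the 21010 tested probes, however, only 11443 were well above background on all arrays, as 6 of the member probes were. The spread of those probes alone was not computed.

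Clk1 and Clk4 followed each other from tumour to tumour. Over the 15 tumours their levels had a Pearson r of 0.828 (permutation p = 0.00013, 0.00195 after adjustment over the 15 pairs of members) and a Spearman rho of 0.929 (permutation p = 1e-05, the smallest that 100000 resamples can give, adjusted 0.00015). The 3 lowest Clk4 levels, in controls 3, 2 and 5, went with Clk1 at 4.50, 4.45 and 4.83. The highest Clk4 levels, in deficient tumour 3 and supplemented tumour 2, went with the highest Clk1 levels, 5.60 and 5.44. The r was 0.833 without the 2 tumours farthest from the median of Clk1, 0.835 after subtracting the mean of each diet and 0.840 after subtracting the mean of each slide. The permutations mixed tumours of all diets. Their p-values thus include the Clk4 difference from control that chose the set, and the r values after subtraction carry no p.

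Because 4 controls lie below the other tumours in Clk4, the relation was also computed in the 10 tumours of the altered diets alone, an alternative chosen after the values were seen. There r was 0.814 (permutation p = 0.00511) and rho 0.855 (permutation p = 0.0031). After adjustment over the 15 pairs the p for r was 0.0766, above the threshold. The 5 controls are too few for a correlation of their own. With the second Clk1 probe, Clk4 had an r of 0.445 over the 15 tumours.

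The other 14 pairs of members had r between -0.278 and 0.538, and none passed the adjustment (lowest adjusted permutation p = 0.300). The strongest of them joined Srpk2 and Dyrk1a (r = 0.538, permutation p = 0.0400, adjusted 0.300). Clk4 had an r of 0.096 with Clk2 and 0.040 with Clk3 (adjusted permutation p = 0.783 and 0.886); whether these differ from its r with Clk1 was not tested.

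**Figure D3:**
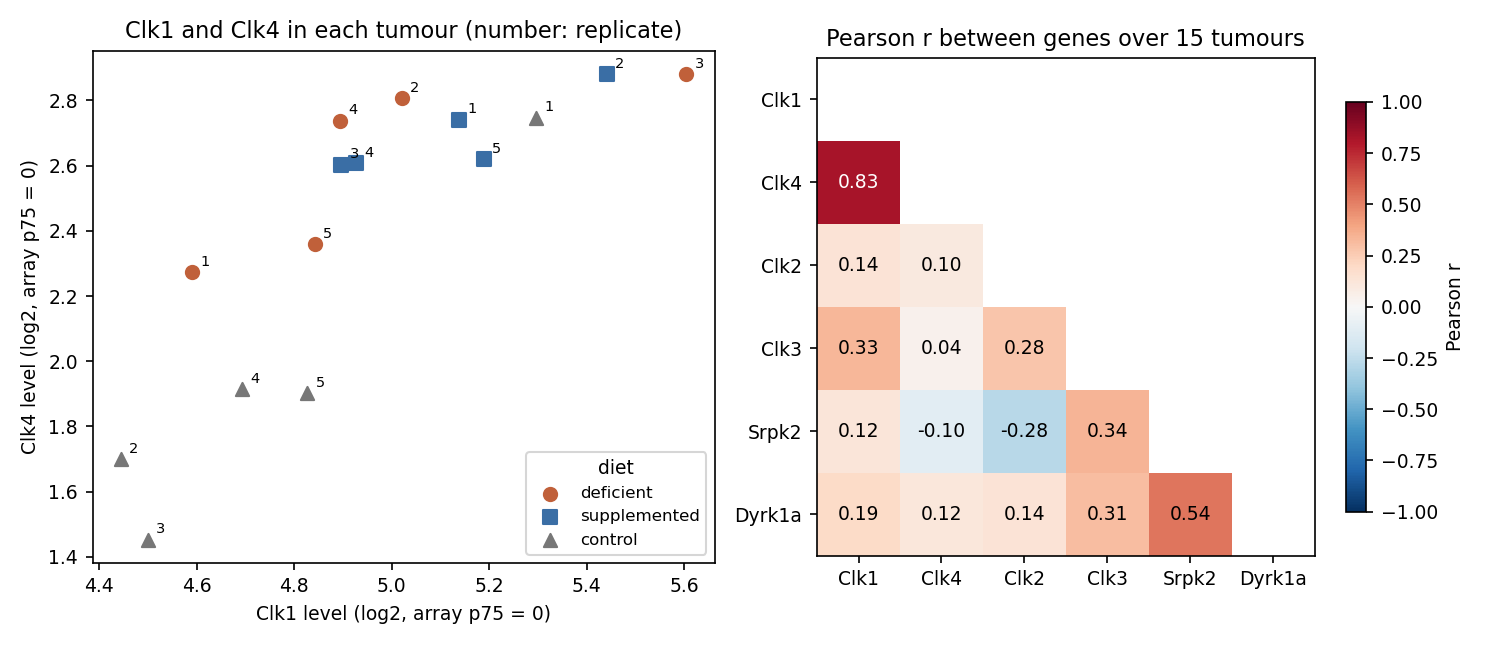
Left, Clk4 against Clk1 (brighter probe) in each of 15 tumours, both as log2 levels, with the replicate number beside each point. Right, Pearson r over the 15 tumours for each of the 15 pairs of member genes; the Clk1 and Clk4 pair stands at 0.83 and the other 14 between -0.28 and 0.54.

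Among 8300 named genes with complete values, Clk1 was the 6th most like Clk4 by r across the 15 tumours, while Dyrk1a, Clk2, Clk3 and Srpk2 stood at ranks 2668, 2869, 3418 and 4912. The 5 genes most like Clk4 were Tsc22d2 (r = 0.889), a member of the TSC22 family of leucine zipper proteins, Zmym6 (0.858), a zinc finger protein, Eif3j (0.853), a subunit of the translation initiation factor that recruits ribosomes, Pknox1 (0.843), a homeodomain factor, and Grpel2 (0.839), a mitochondrial co-chaperone. Tsc22d2 was also second for Clk1 (r = 0.867), after Itprid2 (0.873) and before Vasn (0.859), which encodes vasorin. Of the 5, Pknox1 was well above background on 11 arrays and the others on 15.

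The genes that ran most opposite to Clk4 were Esyt1 (r = -0.788), which tethers the endoplasmic reticulum to the plasma membrane, Chpf2 (-0.774), which takes part in chondroitin synthesis, Tor3a (-0.755), Psmb5 (-0.753), a catalytic subunit of the proteasome, and Sharpin (-0.751), part of the linear ubiquitin ligase. These correlations are the extremes of 8300 and carry no test. After subtracting diet means r was 0.816 for Tsc22d2, 0.779 for Zmym6 and 0.804 for Eif3j, but 0.640 for Pknox1 and 0.646 for Grpel2. Tsc22d2 stood 0.52 higher in deficient and 0.67 higher in supplemented tumours than in controls, values that share the controls with those of Clk4. Because it was picked for its likeness to Clk4 over these same tumours, a similar diet pattern is partly built in.

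Clk4 and Clk1 were also set against array brightness, the mean levels of 7 lists of splicing and kinase genes, and those of 10 lists of cell type markers with tested genes. Of the 36 relations 0 passed the adjustment and 0 had an unadjusted permutation p under 0.05. The strongest were those with fibroblast markers, at r = -0.447 for Clk4 (rho = -0.421, permutation p = 0.0962, adjusted 0.942) and r = -0.476 for Clk1 (rho = -0.404, permutation p = 0.0745, adjusted 0.942). After subtracting diet means these were -0.605 for Clk4 and -0.519 for Clk1, and Clk1 with endothelial markers was -0.530 (-0.411 before), given with no test. With SR proteins the r was 0.249 for Clk4 and 0.203 for Clk1.

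Most milk-secretion markers had higher values with both altered diets than with control, the same side as Clk4. Their summed linear level over 8 genes (1 being the array's 75th percentile) ran from 142 to 538 in deficient, from 86.4 to 491 in supplemented and from 28.4 to 436 in control tumours, and 7 of 8 in deficient and 8 of 8 in supplemented tumours were higher than in controls, with 0 called by limma (2 in deficient and 0 in supplemented tumours at an unadjusted p under 0.05). Of all named genes 44.2% were higher in deficient and 49.2% in supplemented tumours than in controls, and of all probes 3.91% and 1.98% had an unadjusted p under 0.05. Of the 8 milk markers, 4 were well above background on all 15 arrays, and Elf5, Wap, Btn1a1 and Csn1s2a on 11, 10, 8 and 7. The largest differences from control came from these dimmer ones, Wap at 1.42 in deficient and Csn1s2a at 2.14 in supplemented tumours. Over the tumours the mean level of the milk markers had an r of 0.226 with Clk4 (rho = -0.061, permutation p = 0.416, adjusted 0.942), and -0.053 after subtracting diet means. The 3 tested adipocyte markers were also higher than in controls with both altered diets, with a median of 0.74 in deficient and 0.42 in supplemented tumours and 0 called by limma or at an unadjusted p under 0.05. Of these, Cfd alone was well above background on all 15 arrays. It stood 0.74 higher in deficient but only 0.02 higher in supplemented tumours than in controls. Adipoq, the fat cell hormone adiponectin, stood at 1.24 in deficient minus control and 0.91 in supplemented minus control tumours, and was well above background on 6 arrays. The summed level of 7 adipocyte markers was 3.12 to 74.8 in deficient, 3.57 to 30.4 in supplemented and 4.36 to 12 in control tumours, with Lep, Cidec and Pparg not above background on any array. The median of this sum was 10.0 in deficient, 5.70 in supplemented and 6.54 in control tumours, so it was not higher with the supplemented diet. The r of the adipocyte mean level to Clk4 was -0.037, and -0.391 after subtracting diet means. The summed level of 6 red cell markers was 56.8 to 307 in deficient, 12.5 to 29.6 in supplemented and 12.1 to 66.1 in control tumours, with an r of -0.022 to Clk4; Slc4a1, the anion exchanger of red cells, was not above background on any array. Other lists differed in side. Of the basal epithelial markers 5 of 6 were lower with each altered diet (median -0.207 in deficient, -0.322 in supplemented), and of the macrophage markers 5 of 7 (-0.14, -0.155). Fibroblast (-0.261, -0.125) and luminal medians (-0.073, -0.049) were also below 0. The T cell median was above 0 (0.148, 0.023), and endothelial, muscle and red cell medians changed sign. Limma called 0 of these genes. At an unadjusted p under 0.05 there were 3 of 5 red cell and 1 of 7 macrophage markers in deficient against control tumours. In supplemented against control tumours there were 0 of either. In supplemented against deficient tumours there were 5 of 5 red cell markers (median -1.94), beside 7.05% of all probes. The part of these marker groups in the Clk4 levels was not tested further.

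The substrates of these kinases gave no call between any 2 diets. Of 13 SR proteins 9 were tested: in deficient against control tumours 5 were higher and 4 lower (median difference 0.05), in supplemented against control 7 and 2 (0.09), and in supplemented against deficient 6 and 3 (0.03), with 0 called by limma each time. Over all 8377 named genes the medians were -0.03, -0.00 and 0.03 for the same comparisons, with 44.2%, 49.2% and 54.4% of genes higher. Srsf1, the founding SR protein, differed by 0.44 in supplemented minus deficient tumours (95% interval 0.01 to 0.87, limma adjusted p = 0.708), Tra2b, which binds exonic enhancers, by 0.44 (-0.09 to 0.97, adjusted p = 0.732) and Srsf5 by -0.36 (-0.79 to 0.07, adjusted p = 0.729). None of these passed the test.

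SR-related proteins, which carry similar repeats but act as coactivators or scaffolds, had 17 of 22 tested. In deficient against control tumours 11 were higher and 6 lower (median 0.14), in supplemented against control 8 and 9 (-0.06), and in supplemented against deficient 7 and 10 (-0.11), with 0 called. Pnn, the speckle protein pinin, had the smallest p of the list between supplemented and deficient tumours, with a difference of -0.66 (95% interval -1.13 to -0.20, limma adjusted p = 0.661), and it was 0.56 in deficient minus control tumours (adjusted p = 0.987). Rsrc2 differed by -0.46 and the spliceosome factor Prpf38b by 0.47 in supplemented minus deficient tumours (limma adjusted p = 0.706 and 0.708). Cwc25, another spliceosome factor, stood at 0.43 in deficient minus control and 0.36 in supplemented minus control tumours (limma adjusted p = 0.987 and 1), and was well above background on 8 arrays.

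The enzymes that remove SR protein phosphates and the carriers that import SR proteins had 8 of 10 tested. In deficient against control tumours 3 were higher and 5 lower (median -0.08), in supplemented against control 5 and 3 (0.14) and in supplemented against deficient 7 and 1 (0.14), with 0 called. Tnpo3, the importer of phosphorylated SR proteins, had the largest difference, 0.54 in supplemented minus deficient tumours (95% interval -0.12 to 1.20, limma adjusted p = 0.740, well above background on 9 arrays). Ppp1ca, a catalytic subunit of protein phosphatase 1, differed by 0.28 (-0.07 to 0.63, adjusted p = 0.742).

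Partners and targets of Dyrk1a had 7 of 13 tested. In deficient against control tumours 1 was higher and 6 lower (median -0.07), in supplemented against control 6 and 1 (0.10), and in supplemented against deficient 6 and 1 (0.16), with 0 called. Dcaf7, the adaptor that binds Dyrk1a, stood 0.47 higher in supplemented than in deficient tumours (95% interval 0.01 to 0.93, limma adjusted p = 0.708) and Nfatc4, a calcium-regulated transcription factor that Dyrk1a phosphorylates, 0.37 higher (0.03 to 0.72, adjusted p = 0.703). Neither passed the test. The Dyrk1a difference of 0.30 in the same comparison had the same sign, but its probe was near background on some arrays. It was 0.02 with the authors' deposited values and -0.04 with an alternative background correction described below.

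Kinases related to the members had 8 of 15 tested, with medians of -0.00 for deficient against control, 0.01 for supplemented against control and 0.05 for supplemented against deficient. Dyrk2 was the one with the smallest p between supplemented and deficient tumours, at 0.33 (limma adjusted p = 0.713). The hnRNP proteins, which often oppose SR proteins at exons, had 18 of 22 tested and medians of -0.03, -0.05 and 0.04, and Hnrnph2 differed by -0.41 in supplemented minus deficient tumours (limma adjusted p = 0.715). Core spliceosome proteins had 27 of 36 tested and medians of -0.06, 0.00 and 0.03, with Snrpb, which encodes a protein of the Sm ring, at -0.36 in the same comparison (limma adjusted p = 0.678). In all 3 lists 0 genes were called in any comparison. At an unadjusted limma p under 0.05, deficient against control had 2 SR-related and 1 core spliceosome gene of the 7 lists, supplemented against control had 0, and supplemented against deficient had 1 SR protein, 3 SR-related, 2 core spliceosome and 2 Dyrk1a partner genes. That was 3 of 94 genes (3.19%) for deficient against control, beside 3.91% of all 21010 probes, 0 of 94 for supplemented against control, beside 1.98%, and 8 of 94 (8.51%) for supplemented against deficient, beside 7.05%. The shares over the lists lay near those of all probes.

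**Figure D4:**
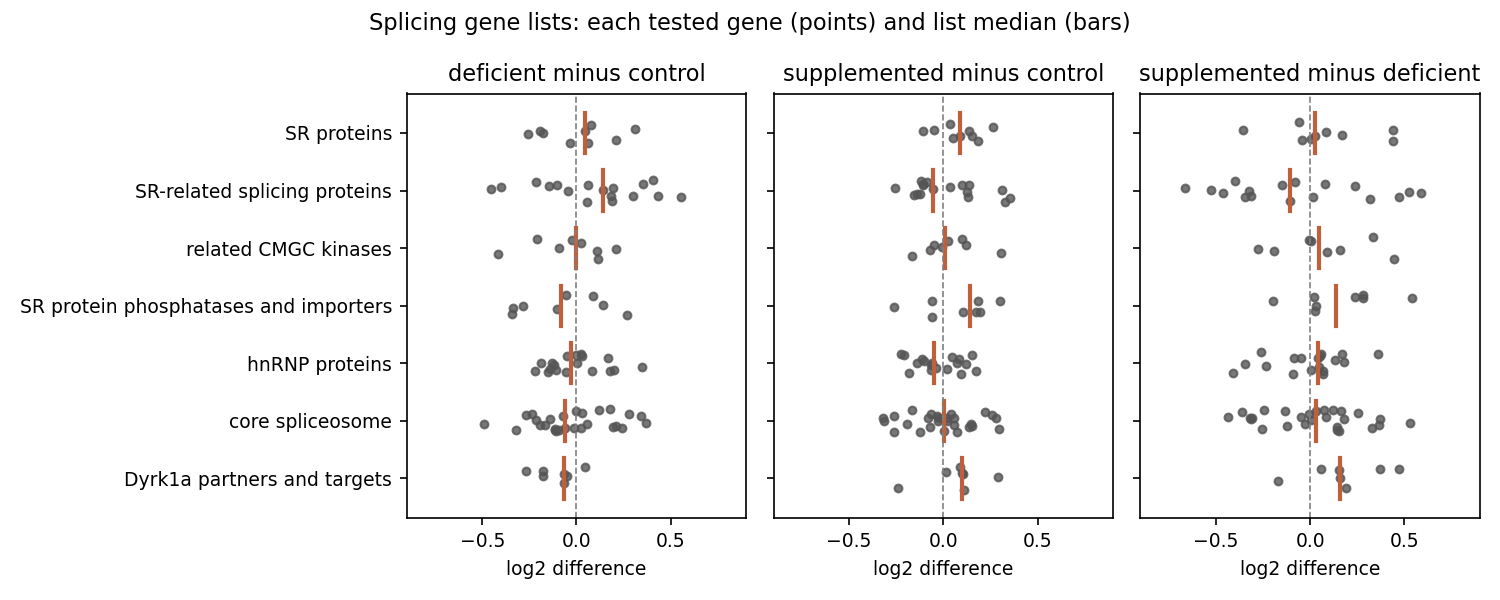
Log2 differences between diets for each tested gene (points) of 7 splicing and kinase gene lists, with the list median as a bar. The medians lie between -0.11 and 0.16 (with the planned normexp background correction, between -0.49 and 0.14), and 0 of the genes shown was called by limma in any comparison.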

How the data were processed

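The scanner files deposited by the authors hold spot intensity on a linear scale, background-subtracted and detrended with the scanner's Agilent Feature Extraction software, version 11.5.1.1 per the file headers and 15.5 per the submitters' processing notes. The authors' deposited value table holds log2 values for 30002 of 41012 probes. Its steps are unstated (not given in the sources used here). The columns followed the log2 median spot signal with r from 0.984 to 1.000 and had medians of 7.09 to 7.10, so its scale was read as log2 and its normalization remains unknown. It was used as an alternative.

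The level of a probe is log2 processed signal minus the array's 75th percentile, with control and outlier spots left out and spots of a probe averaged. The 21010 probes well above background on 5 or more of the 15 arrays were fitted with limma 3.58.1 in R 4.3.3 (3 diets in 1 model, Benjamini-Hochberg over all probes, threshold 0.05). Simulated data were used to test the fit. Correlations used permutation tests with 100000 resamples (numpy 2.4.6). Genes were named by unversioned accession through a RefSeq table of build GRCr8, which matched 17502 probes (42.7%).

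Where several probes of a gene were tested, the one with the highest mean is shown. Named beside the members are, per list and comparison, genes among the 3 with the smallest p, the 5 highest and 5 lowest correlations with Clk4 and the 3 highest with Clk1. The members and lists were chosen with earlier results of these data known. Milk, adipocyte and red cell markers were singled out after their values were seen. The groups share replicate numbers: over the 15 same-numbered pairs of arrays, deviations from the diet means correlated from -0.281 to 0.224, with 6 above 0.1, so the numbers were not taken to pair the tumours. Alternatives covered background correction, scaling, filters, slide, brightness, array weights and left-out arrays. The planned normexp correction used the median spot signal, as the files hold no mean signal.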

Additional observations from a re-analysis of the deposited data

How the results depend on the processing

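Against control, the members' differences moved by less than 1 SD between replicates in 386 of 390 repeats. Most of these differences were themselves smaller than 1 SD, so small moves could change their sign. Supplemented minus control kept its sign in 18 of 28 repeats for Srpk2 and 23 of 28 for Clk2. Deficient minus control kept it in 24 of 27 for Dyrk1a. For Clk4 both comparisons kept it in 28 of 28. The 4 that moved by more than 1 SD were supplemented minus control with normexp background correction, at 0.20 for Clk4, -0.17 for Clk1, -0.29 for Clk3 and -0.35 for Srpk2. On 4 supplemented arrays that fit gave background means from -528 to -31, against 25.5 to 40.4 on the other 11. With the spots below local background left out of the fit, an alternative chosen after seeing the data, the Clk4 difference was 0.73. Supplemented minus deficient changed sign in 16 of 195 repeats, none past the threshold. With normexp it was -0.40 for Clk4, -0.43 for Clk1, -0.088 for Clk3 and -0.15 for Srpk2, and with the later normexp fit -0.039 for Dyrk1a. It was -0.035 for Clk4 with the deposited values. Without the 3 dimmest arrays it was -0.037 for Clk1, 0.16 for its second probe and -0.025 for Srpk2, and with array weights 0.062 for the second Clk1 probe and -0.011 for Srpk2. Leaving out 1 array at a time gave -0.18 to 0.11 for the second Clk1 probe and -0.006 to 0.15 for Clk4. The cause of the changes outside the normexp fits was not tested.

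Array weights called 1 probe, which has no gene name here, between deficient and control tumours (limma adjusted p = 0.0469) and between supplemented and deficient tumours (limma adjusted p = 0.0163), and leaving out 1 array gave 0 to 1 calls for supplemented minus deficient, the 1 being Capns2 without supplemented tumour 1. No member was called in any alternative. Pairs of members with a called correlation numbered 1 as reported, 7 with normexp, 2 with the later normexp fit (Clk3 with Srpk2 added), 1 to 2 with 1 array left out (Clk2 with Clk3 added without deficient tumour 4), and 0 in the 10 tumours of the altered diets. Clk1 with Clk4 stayed between 0.79 and 0.89 in all of them and was called in all but the last. The r between the 2 Clk1 probes, 0.256 as reported, ran from 0.164 to 0.469 with 1 array left out and was 0.643 with normexp, 0.335 with the later normexp fit and -0.211 in the altered diets alone.

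With replicate number as a block, the Clk4 difference was 0.67 between deficient and control, 0.75 between supplemented and control and 0.08 between supplemented and deficient tumours (limma adjusted p = 0.953), and no call changed. Without a filter on dim probes the median of all 41012 probes was 0.11 between deficient and control and -0.14 between supplemented and deficient tumours, and changes of single probes there are relative to it. Of the list medians 574 of 588 stayed within their spread. Of the other 14, 10 came with normexp, all involving supplemented tumours. Supplemented minus control was then -0.44 for SR proteins, -0.49 for SR-related proteins, -0.38 for phosphatases and importers, -0.47 for hnRNP and -0.31 for core spliceosome proteins, and supplemented minus deficient -0.21, -0.37, -0.17, -0.37 and -0.27 for the same lists. With the later normexp fit these ran from -0.02 to 0.23. The other 4 were -0.31 for SR-related proteins and 0.25 for related kinases between supplemented and deficient tumours with probes well above background on all arrays, and, for Dyrk1a partners between deficient and control tumours, -0.19 both with slide as a block and without deficient tumour 4.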

Other observations

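Within the groups of 5 tumours, none of the 7 member probes had a tumour whose gap to the others passed Dixon's 95% critical value (21 groups, where chance gives about 1). Control 1, singled out after its values were seen, was the highest control for Clk4, for Clk1 and for the second Clk1 probe, at 2.75, 5.30 and 1.66. It was not the highest control for Clk2, Clk3, Srpk2 or Dyrk1a.

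In the signals used for the normexp alternative, the arrays of supplemented tumours 1, 3, 4 and 5 held 5, 12, 20 and 18 spots at or below their local background, against 0 to 2 on the other arrays. With those spots left out, the fitted background means lay between 27.0 and 40.7 on all 15 arrays.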
